A study of Homo sapiens with 16 samples.

Results

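The response of MDA-MB-231 cells to 2-deoxy-glucose (2DG) was measured as the deposited log2 values of 4 arrays from cells given 2DG minus those of 4 arrays from cells given vehicle, across 19775 genes. These 8 arrays were chosen by line and treatment alone and are 8 of the 16 arrays of the series. The other 8 hold the same comparison in MCF10A, an immortalized and non-tumorigenic mammary epithelial line. MDA-MB-231 is an established breast cancer line of triple-negative type with mesenchymal features. Both groups were grown at low confluence in DMEM/F12 medium with 10% fetal bovine serum, glutamine and 17.5 mM D-glucose. The treated cells received 50 mM 2DG and the control cells an equal volume of water, and both were harvested after 24 h. The MCF10A medium differed, with 5% horse serum, insulin, EGF, cholera toxin and hydrocortisone. The replicates of each group carry the letters A to D and are called biological replicas in the labels. All values below are on the log2 scale of RMA (robust multi-array average), so a difference of 1 is a 2-fold change, and values listed for 4 arrays follow the order A, B, C and D.

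2DG is a glucose analogue that enters cells through glucose transporters and is phosphorylated by hexokinase. Its phosphate is not passed on through glycolysis, and because 2DG also resembles mannose it can enter the sugar chains built for N-linked glycoproteins in the endoplasmic reticulum (ER). Cells answer misfolded ER glycoproteins with the unfolded protein response, whose sensors raise chaperones and the transcription factors XBP1, ATF4 and CHOP. A separate sensor, the factor MondoA with its partner MLX, reads hexose phosphates and drives the arrestin gene TXNIP.

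A gene is said to rise or fall below only where limma gave it a p below 0.05 after Benjamini-Hochberg adjustment over every gene. By this rule 10057 genes changed, 50.9% of those tested: 5039 rose (25.5%) and 5018 fell (25.4%). Of these, 603 rose and 937 fell at least 2-fold, and 76 rose and 83 fell at least 4-fold. The groups did not overlap for 9271 genes (46.9%). The median change over all genes was 0.03 and the median SE (standard error of the fit) 0.0665, and 5487 of the called genes changed by less than 0.5. A count of called members in a gene list is therefore set beside these shares. The members and lists were chosen with earlier results of these data known, so such counts are descriptions and not tests. Levels differed as well. On vehicle the array medians were 7.15 to 7.2 for all genes and 11.375 to 11.465 for the ER chaperones, and the part of level in the counts was not tested.

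The 3' minus 5' value of the actin control probe sets, which follows RNA integrity, was 0.38, 1.09, 0.45 and 0.47 on the vehicle arrays and 1.13, 0.99, 1.02 and 0.97 on the 2DG arrays. Vehicle replica B thus lay with the 2DG arrays, and the other 3 vehicle arrays lay below all of them. The ratio was 0.43 higher with 2DG (exact permutation test, two-sided, p = 0.114, where 0.0286 is the smallest p possible). Without vehicle replica B it was 0.594 higher. That array was singled out by this same ratio, so a test without it cannot decide whether the groups differ. The ratio differs between the groups beside every result that follows, and its part in them was not tested beyond the values given here. With it as a covariate 4077 genes rose and 4786 fell, and without vehicle replica B 5025 rose and 4862 fell. All 603 and 937 genes with changes of at least 2-fold kept their call and direction without that array. Set against its 3 sister arrays, replica B deviated by 0.5 or more in 172 genes, beside 67 to 93 genes for each other array.

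Markers bore out the label in part. The mesenchymal filament gene VIM (vimentin) measured 14.84, 14.83, 14.81 and 14.77 on vehicle, near the top of the scale. The surface receptor CD44 averaged 12.85 and the keratin KRT18 13.52. CDH1 (E-cadherin), which MDA-MB-231 is known to lack, was dim at 4.33, 4.53, 4.80 and 4.81. The growth factor receptor ERBB2 and EPCAM, which the marker list also counts as absent from this line, were not dim, at 8.35 and 10.11 on vehicle. Of 5 measured leukocyte markers none rose and 1 fell, with array medians of 4.95 to 5.32 on vehicle and 5.04 to 5.25 with 2DG. Of 8 fibroblast markers 2 rose, COL3A1 and COL1A1, with array medians of 5.27 to 5.56 on vehicle and 5.85 to 6.09 with 2DG. Of 11 measured markers of MCF10A and basal epithelium 5 rose (KRT14, CDH1, DSP, LAMB3 and PERP), beside 25.5% of all genes, and 1 fell (ITGB4). The median change of these markers was 0.25, with array medians of 5.89 to 6.30 on vehicle and 6.0 to 6.24 with 2DG, and their part in the results was not tested. In these whole cultures, fewer cells of a kind and less RNA per cell cannot be told apart.

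The largest rise was that of PRSS35, which encodes a secreted serine protease-like protein. It measured 3.72, 3.74, 4.02 and 3.92 on the vehicle arrays and 10.43, 10.62, 10.79 and 10.47 on the 2DG arrays, a rise of 6.73 ± 0.0868 (SE, n = 4 per group; limma adjusted p = 1.48e-17) or 106-fold. The vehicle values lie near the low end of the scale, and whether they exceed background is not given. RELN, the extracellular matrix glycoprotein reelin, went from 6.38, 6.46, 6.32 and 6.21 to 11, 11.29, 11.04 and 11.17 (4.78 ± 0.0997). The long noncoding RNA LINC00622 rose by 4.47 and GCNA, named for a germ cell nuclear protein, by 3.71. The small GTPase gene RHOB rose from 6.35, 6.86, 6.47 and 6.51 to 10.70, 10.84, 10.37 and 10.81 on its brightest probe set. Its 4 other probe sets changed by only -0.03 to 0.34, so the size of the RHOB rise rests on that probe set.

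TSC22D3, the leucine zipper protein induced by glucocorticoids and FOXO factors, stood at 8.65, 8.82, 8.71 and 8.71 on vehicle and at 12.19, 12.28, 12.28 and 12.32 with 2DG. The arrays of each group lay close together, but without probe sets shared between transcripts the change was 0.11 (adjusted p = 0.525). Secreted and surface proteins among the further large rises were TNFSF15, a cytokine of the tumor necrosis factor family (3.35), the calcium-binding protein S100P (3.21), the collagen COL15A1 (3.07) and the membrane proteins TMEM171 (3.45) and PRRG4 (3.38). PTGS2, the inducible cyclooxygenase of prostaglandin synthesis, was at 6.37, 6.70, 6.67 and 6.74 on vehicle and at 9.60, 9.74, 9.72 and 9.71 with 2DG. Nuclear proteins were KDM7A, a histone demethylase (3.25), and MSH4, a meiotic mismatch repair homologue (3.11). NMRAL2P, a pseudogene, rose by 3.27, and its vehicle replica A was lower than the rest at 4.22. On vehicle NMRAL2P, MSH4 and COL15A1 averaged 4.71, 4.16 and 4.10, below the level of 5 taken as dim, as PRSS35 did. If such values are background, these 4 rises are lower bounds and their order among the 15 is not settled. The groups overlapped in none of the 15, as the rule that chose them requires.

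The falls were led by HMMR, the hyaluronan and spindle-binding protein of dividing cells, at 10.41, 10.41, 10.45 and 10.39 on vehicle and 6.45, 6.58, 6.73 and 6.49 with 2DG (3.85 ± 0.091, lower). Its other probe set changed by -3.83. E2F8, an atypical E2F repressor that is itself a cell cycle gene, fell by 3.27 and the MYC- and E2F-regulated gene CDCA7 fell by 3.24 (-1.20 without shared probe sets). ANP32E, the chaperone that removes the histone variant H2A.Z, went from 12.61, 12.76, 12.63 and 12.69 to 10.08, 10.10, 10.18 and 10.04. DLEU2, a noncoding host gene of microRNAs, fell by 3.50 on its brightest probe set, and without shared probe sets its change was 0.07 (adjusted p = 0.586). TRIM14, an adaptor of antiviral signalling, fell by 2.57 and was at 0.04 without shared probe sets (adjusted p = 0.718).

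Mitochondrial proteins among the falls were LYRM7, an assembly factor of respiratory complex III, PTCD2, an RNA-binding protein of mitochondria, and TIMM23B, a subunit of the protein import channel. LYRM7 measured 10.49, 10.53, 10.42 and 10.52 on vehicle and 8.08, 7.97, 7.91 and 7.94 with 2DG, and its 3 other probe sets changed by -2.51 to -2.06. PTCD2 fell by 2.44 and TIMM23B by 2.64, and the latter has a near-identical copy in the genome, so the copies may share signal. COL8A1, a short-chain collagen, was bright on vehicle (13.03, 12.89, 12.97 and 12.95) and fell to 10.43, 10.40, 10.54 and 10.45. The remaining falls were MGC12916 (-2.80), the antisense transcript SP2-AS1 (-2.60), MAMDC2 (-2.54), KIAA1143 (-2.53) and BRI3BP (-2.44). The fall of KIAA1143 rests on its brightest probe set, since the other changed by 0.0025. SP2-AS1 had the widest 2DG values of the 15, from 3.96 to 4.69. With 2DG it and MAMDC2 averaged 4.33 and 4.37, also dim, so their falls may likewise be lower bounds.

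**Figure D1:**
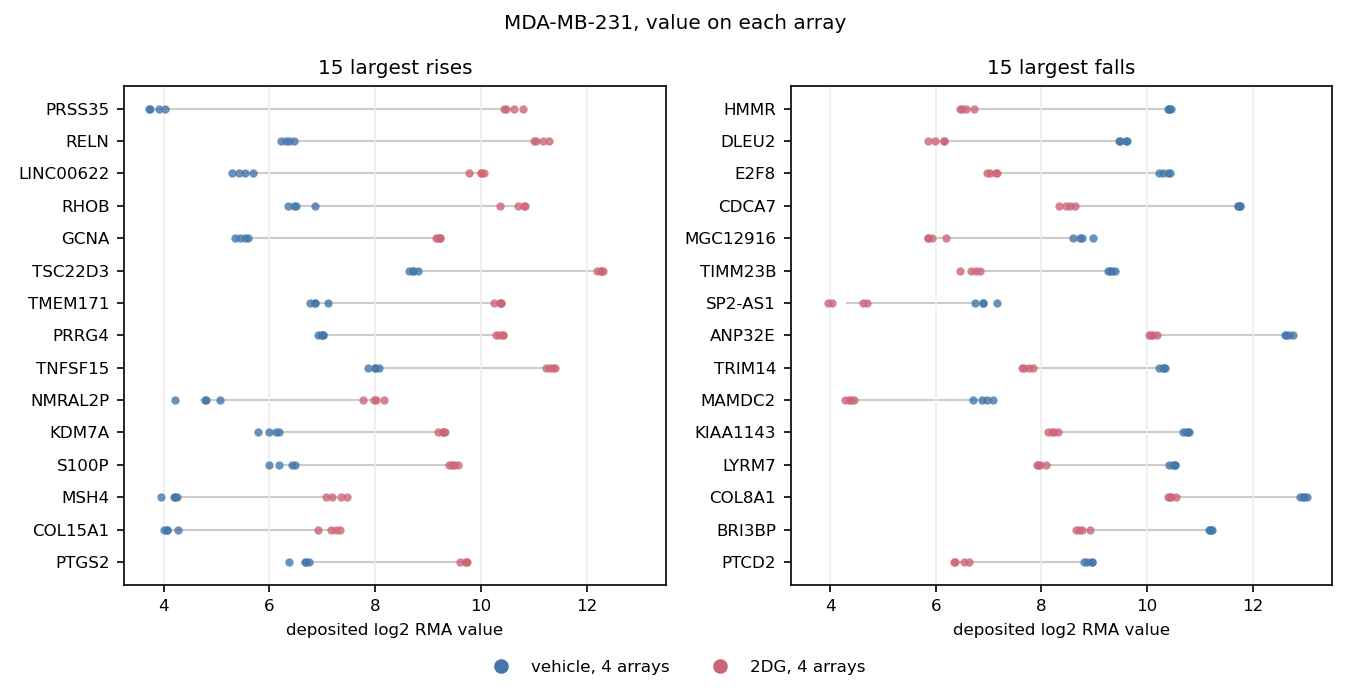
Deposited log2 values of the 15 genes with the largest rises and the 15 with the largest falls in MDA-MB-231, 1 point per array, with a grey line joining the group means. The 2DG arrays of PRSS35 sit between 10.43 and 10.79 and its vehicle arrays between 3.72 and 4.02, and no gene shown has overlapping groups.

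The chaperones of the ER rose almost as a body. Of 24 measured ER chaperones and disulfide isomerases 22 rose and 2 fell, with a median change of 1.20 beside 0.03 for all genes, and 16 rose at least 2-fold. HSPA5 (BiP), the main Hsp70 of the ER and the regulator that holds the stress sensors inactive, measured 13.41, 13.45, 13.36 and 13.34 on vehicle and 14.75, 14.75, 14.81 and 14.81 with 2DG (1.39 ± 0.0389; limma adjusted p = 4.36e-14). The groups were tight and far apart although the gene was already bright. Its promoter carries the ER stress response element, which NF-Y and the stress factors ATF6 and XBP1 are known to bind, so the 250 bases before the RefSeq start are shown (chr9:125241344-125241593, minus strand, GRCh38.p14), with the element in capitals.

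HSPA5 promoter: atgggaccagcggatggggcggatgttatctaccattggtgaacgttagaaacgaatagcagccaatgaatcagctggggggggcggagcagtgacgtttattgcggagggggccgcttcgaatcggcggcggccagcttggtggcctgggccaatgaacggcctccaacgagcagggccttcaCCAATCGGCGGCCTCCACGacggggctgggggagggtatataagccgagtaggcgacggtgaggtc

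The element was searched as CCAAT, 9 free bases and CCACG, on both strands of the same 250 bases before each gene's start in the RefSeq promoter table. It was rare, with a match in 22 of 27305 promoters (0.0806%), and 16 of these genes were measured. Of the 16, 12 rose and none fell, and their median change was 0.81, beside 26.3% that rose and 27.0% that fell among the 15384 measured genes with a promoter. A match is a description of the sequence and does not show that the site is used. The windows of the 12 genes that rose are given in the direction of the motif, with both boxes in capitals, so that the boxes and the 9 bases between them can be compared. Genes that are named here for such a match alone were chosen as all those with a match, outside the rule for named genes.

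HSPA5: tcaCCAATcggcggcctCCACGacg
HSP90B1, distal: tgaCCAATcggaaggagCCACGctt
HSP90B1, proximal: ccaCCAATcgcgccgcaCCACGcac
CALR: cgaCCAATgatggtcgaCCACGcgt
CANX: cggCCAATcttcacactCCACGaag
CRELD2: ggcCCAATccgagttcgCCACGaga
ERO1B: cggCCAATgaggcgggaCCACGcgg
XBP1: tggCCAATcgcggagggCCACGacc
FICD: caaCCAATgggagtggcCCACGgcg
TRIM5: gggCCAATggcatttctCCACGtag
EIF2A and SERP1: acaCCAATtcgctgtctCCACGcat
TMEM120A: gcaCCAATggggaaaggCCACGccc

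HSP90B1 (GRP94), the ER member of the Hsp90 family, holds the element on both strands, 194 and 89 bases before its start. It measured 12.07, 11.55, 12.08 and 11.93 on vehicle, where replica B was lowest, and 13.70, 13.68, 13.87 and 13.53 with 2DG (1.79 ± 0.105). XBP1 has the element 52 bases before its start and rose from 8.85, 8.91, 8.87 and 8.97 to 10.83, 10.82, 10.85 and 10.85 (1.94 ± 0.0408), and its other probe set changed by 0.16. The lectin chaperones CALR (calreticulin) and CANX (calnexin), which retain glycoproteins for folding, rose by 1.33 and 0.45. FICD, the enzyme that modifies BiP by AMPylation, rose by 0.56 and the ER oxidase ERO1B by 1.29. The other ERO1B probe set changed by 4.33, so the size of that rise depends on the probe set. TRIM5, a restriction factor not known as an ER protein, rose by 1.52, from 8.40, 8.55, 8.37 and 8.47 to 10.03, 9.91, 9.96 and 9.98.

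Opposed gene pairs shared an element. SERP1, a stress-associated ER membrane protein, and EIF2A, a translation factor, are read in opposite directions from one window and rose by 0.80 and 0.82. For SERP1 this is the brightest of 4 probe sets, and without shared probe sets it fell by 0.46 (adjusted p = 2.56e-09). CRELD2, a secreted ER stress protein, and ALG12, a mannosyltransferase of the N-glycan precursor, also share a window. CRELD2 rose from 10.03, 10.22, 10.07 and 10.06 to 11.10, 11.13, 11.14 and 11.18 (1.04 ± 0.0439). ALG12 measured 6.95, 6.83, 6.93 and 6.68 on vehicle and 6.62, 6.97, 6.79 and 7.04 with 2DG, with overlapping groups and a change of 0.01 ± 0.0838 (adjusted p = 0.955). The 3 further measured genes with the element, NLRP4, ZNF17 and GLRA2, did not pass the test, and TMEM120A rose by 0.38.

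**Figure D2:**
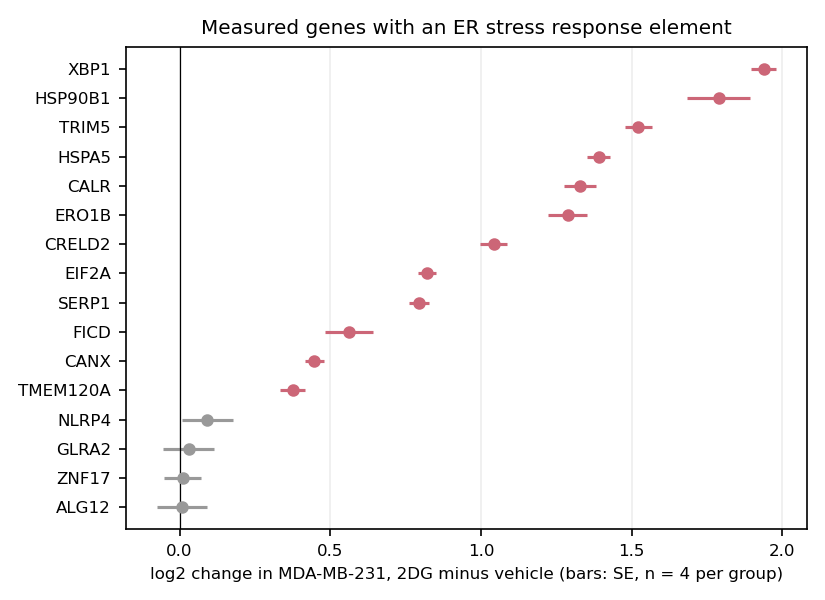
Log2 change with 2DG in MDA-MB-231 for the 16 measured genes whose promoter matched the ER stress response element, with bars for the SE of the fit (n = 4 per group). Red points are genes that rose and grey points those that did not pass the test. XBP1 and HSP90B1 lie furthest right at 1.94 and 1.79.

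Chaperones without a match to the element with 9 free bases in these 250 bases rose as far. DNAJB9, a J-domain cochaperone of BiP, went from 8.73, 8.73, 8.72 and 8.70 to 11.64, 11.66, 11.67 and 11.63, and its other probe sets changed by 2.96 and 3.19. HYOU1, the nucleotide exchange factor and holdase of the ER, rose by 2.30 ± 0.0802, with vehicle replica B at 10.75 above the other 3 vehicle arrays, and by 2.41 without it. MANF, a secreted ER stress protein, rose by 1.86, DNAJC3 by 1.82 and SDF2L1 by 1.5. The short form of the element (ATTGG, 1 base, CCACG) was matched in 14 measured genes, of which 5 rose and 2 fell. For HERPUD1 and SDF2L1 only the element with 9 free bases was looked up singly, and it was not matched in this window. Which genes held the short form is not given here.

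The sensors and the degradation machinery moved less evenly: of 28 genes for unfolded protein response sensors and ER-associated degradation 19 rose and 6 fell (median 0.31). ERN1 (IRE1), the sensor that splices XBP1 mRNA, rose by 2.36 ± 0.0641, but its other probe sets changed by -0.15 and 0.27. HERPUD1, which recruits substrates to the degradation complex, measured 10.97, 10.99, 10.95 and 10.89 on vehicle and 13.13, 13.22, 13.17 and 13.25 with 2DG, and its other probe set changed by 0.81. SEL1L, the adaptor of the ubiquitin ligase HRD1, rose by 1.42, EDEM1, which trims mannose from doomed glycoproteins, by 0.80, and CREBRF, a CREB3 regulator, by 1.86. Of 49 genes of ER translocation and vesicle traffic 35 rose and 8 fell, with a smaller median of 0.26. SEC11C, a catalytic subunit of signal peptidase, rose by 0.97 (other probe set -0.18), the translocon proteins TRAM1 by 0.83 and SEC61B by 0.42. Another signal peptidase subunit, SPCS3, went the other way, from 11.81, 11.63, 11.81 and 11.97 to 10.09, 9.94, 9.88 and 9.90 (-1.85), though its other probe sets ran from -0.74 to 0.60. The KDEL receptor KDELR3, which returns chaperones to the ER, fell by 0.26.

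Sugar chain synthesis, in which 2DG can stand in for mannose, split evenly. Of 35 genes of hexosamine, mannose and N-glycan synthesis 13 rose and 13 fell, with a median of 0.04. GFPT1, the entry enzyme of the hexosamine pathway and a known XBP1 target, rose from 10.34, 10.10, 10.39 and 10.26 to 11.42, 11.46, 11.55 and 11.45 (1.20 ± 0.0525), with other probe sets from -0.70 to 1.38. OGT, which attaches O-GlcNAc to cytosolic and nuclear proteins, rose by 1.10. Of the enzymes that build the lipid-linked precursor, DPAGT1, which makes the initial step, fell by 0.58, the mannosyltransferase ALG9 by 1.19 and the glucosyltransferase ALG10 by 1.48. ALG9 changed by 0.34 without shared probe sets. STT3B, a catalytic subunit of the transferase that moves the chain onto proteins, rose by 0.24.

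ATF4 and most of its effectors rose. Of 22 measured factors and direct effectors of ATF4 and CHOP 15 rose and 3 fell, 12 of them at least 2-fold, with a median of 1.32. ATF4 itself, which is controlled mainly by translation, was bright and rose modestly, from 12.94, 13.00, 12.96 and 12.92 to 13.60, 13.61, 13.56 and 13.72 (0.67 ± 0.0372). Its partner DDIT3 (CHOP) measured 8.82, 8.81, 8.87 and 8.80 on vehicle and 10.43, 10.42, 10.40 and 10.55 with 2DG. CHAC1, the glutathione-degrading enzyme, rose by 2.61 ± 0.0911 and VLDLR, a lipoprotein receptor, rose by 2.04. ATF3 rose by 2.88 and the stress cytokine GDF15 by 2.54 on their brightest probe sets, but without shared probe sets they were at 0.18 and 0.18 (adjusted p = 0.105 and 0.228).

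Genes that supply amino acids rose more often than they fell. Of 17 enzymes of serine, one-carbon, asparagine and cysteine synthesis 9 rose and 4 fell, with a median of 0.56, and of 21 amino acid transporters 13 rose and 2 fell, with a median of 0.58. ASNS, asparagine synthetase, measured 10.79, 10.81, 10.80 and 10.71 on vehicle and 13.35, 13.21, 13.25 and 13.24 with 2DG (2.48 ± 0.0386), and its change was 1.19 without shared probe sets. CTH, which makes cysteine from cystathionine, showed the widest gap of the list, at 9.39, 9.41, 9.42 and 9.39 against 12.34, 12.34, 12.38 and 12.24. The serine pathway rose along its length, with PHGDH at 1.15, PSAT1 at 0.79 and PSPH at 1.14, followed by mitochondrial MTHFD2 at 0.80. PSPH had another probe set at -1.15 and MTHFD2 at 0.24.

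SLC3A2, the shared heavy chain of several amino acid exchangers, rose from 10.78, 10.87, 10.76 and 10.68 to 12.97, 13.13, 13.12 and 13.07 (2.30 ± 0.0503). Its partner chains rose too, SLC7A11 of the cystine exchanger by 1.89 and SLC7A5 of the leucine exchanger by 0.82. SLC1A4, a neutral amino acid carrier, rose by 1.92 (0.84 without shared probe sets), while SLC7A2, a carrier of cationic amino acids, fell by 1.36 on its brightest probe set and had others up to 1.33. The cytosolic aminoacyl-tRNA synthetases split, with 8 of 17 up and 7 down: WARS1 rose by 1.31 and CARS1 by 1.02, and FARSB, a subunit of the phenylalanine enzyme, fell by 1.96. The core of the ATF4 and CEBP composite site (TGNTGN, then AA and C or T, on either strand) was common, in 4.98% of promoters, and the 591 measured genes with it had a median of 0.04, with 24.0% up and 18.8% down. It was matched in 0 of 17 amino acid transporters with a promoter. Of 13 genes of serine, one-carbon, asparagine and cysteine synthesis with a promoter 3 held it, 1 up and 1 down.

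Most alpha-arrestin genes rose. TXNIP, which restrains glucose uptake, was already bright and measured 12.41, 12.42, 12.43 and 12.45 on vehicle and 14.31, 14.26, 14.35 and 14.32 with 2DG (1.88 ± 0.0329; limma adjusted p = 5.31e-16), and its other probe sets changed by 2.83 and 2.95. Within the alpha-arrestin family the order of the changes was ARRDC3 (1.93 ± 0.059), ARRDC4 (1.91 ± 0.0493), TXNIP, ARRDC2 (1.02 ± 0.0508) and ARRDC1 (-0.26 ± 0.0538). On these brightest probe sets the first 3 differed by no more than their errors, and ARRDC2 and ARRDC1 lay well below them. The other probe sets of TXNIP changed by more than ARRDC3 and ARRDC4 did, so its place in the order depends on the probe set. ARRDC1 changed by 0.28 without shared probe sets. The gene of the sensor MondoA, MLXIP, fell by 0.15 (adjusted p = 0.016), a call that was lost without vehicle replica B (adjusted p = 0.0539) and without 2DG replica A (adjusted p = 0.0545).

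The TXNIP promoter is shown because MondoA and ChREBP are known to act on it through a pair of E-boxes (chr1:145996580-145996829, minus strand, GRCh38.p14).

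TXNIP promoter: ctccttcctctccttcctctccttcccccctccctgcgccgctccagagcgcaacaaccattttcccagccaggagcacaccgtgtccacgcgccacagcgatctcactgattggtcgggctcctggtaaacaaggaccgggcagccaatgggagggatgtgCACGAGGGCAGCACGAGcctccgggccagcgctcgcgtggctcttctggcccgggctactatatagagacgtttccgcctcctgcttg

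The capitals mark CACGAG, 5 bases and CACGAG, a pair in the same direction. The search as first written asked for a converging pair (CACGNG, 5 bases, CNCGTG), which 6 measured genes held, 2 of them up and 2 down, and TXNIP was not among them. The pair in the same direction (CACGNG, 5 bases, CACGNG) was added after this sequence had been seen and was held by 15 measured genes, of which 7 rose and 3 fell (median 0.04). Of the 8 arrestin and MondoA genes with a promoter TXNIP held it and the other 7 did not.

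Genes of glycolysis fell more often than they rose, 15 against 7 of 23, with a median of -0.27. The hexokinases that phosphorylate 2DG parted: HK1 rose from 11.98, 12.14, 11.92 and 11.96 to 12.55, 12.63, 12.65 and 12.65, and HK2 fell from 11.35, 11.57, 11.34 and 11.45 to 10.69, 10.80, 10.90 and 10.83. Both changes were 0.62 in size on this scale, and neither pair of groups overlapped. The high-affinity glucose transporter SLC2A3 rose by 1.5, and its other probe sets changed by 2.03 and 2.29. Of the bifunctional enzymes that set fructose 2,6-bisphosphate, PFKFB3 rose by 0.86 and PFKFB2 fell by 1.24, and TIGAR, which degrades the same metabolite, rose by 0.94. PFKFB2 had another probe set at 0.72. LDHA, lactate dehydrogenase, fell by 0.35, from 14.57, 14.55, 14.58 and 14.54 to 14.17, 14.21, 14.23 and 14.21.

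The kinases that shut pyruvate out of the citric acid cycle did not move together. PDK3 fell from 8.32, 8.43, 8.39 and 8.40 to 6.92, 6.77, 7.18 and 6.64 and PDK1 fell by 1.09, PDK2 was at -0.11 ± 0.083 (adjusted p = 0.305), and PDK4 rose by 1.05. The changes of PDK1 and PDK4 rest on their brightest probe sets, since the other probe sets ran from -0.10 to 0.26 and from 0.01 to 0.10. The opposing phosphatase PDP1 rose by 0.44. Of the 30 genes of pyruvate dehydrogenase and the citric acid cycle 5 rose and 17 fell, among them mitochondrial isocitrate dehydrogenase IDH2 (-1.01).

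**Figure D3:**
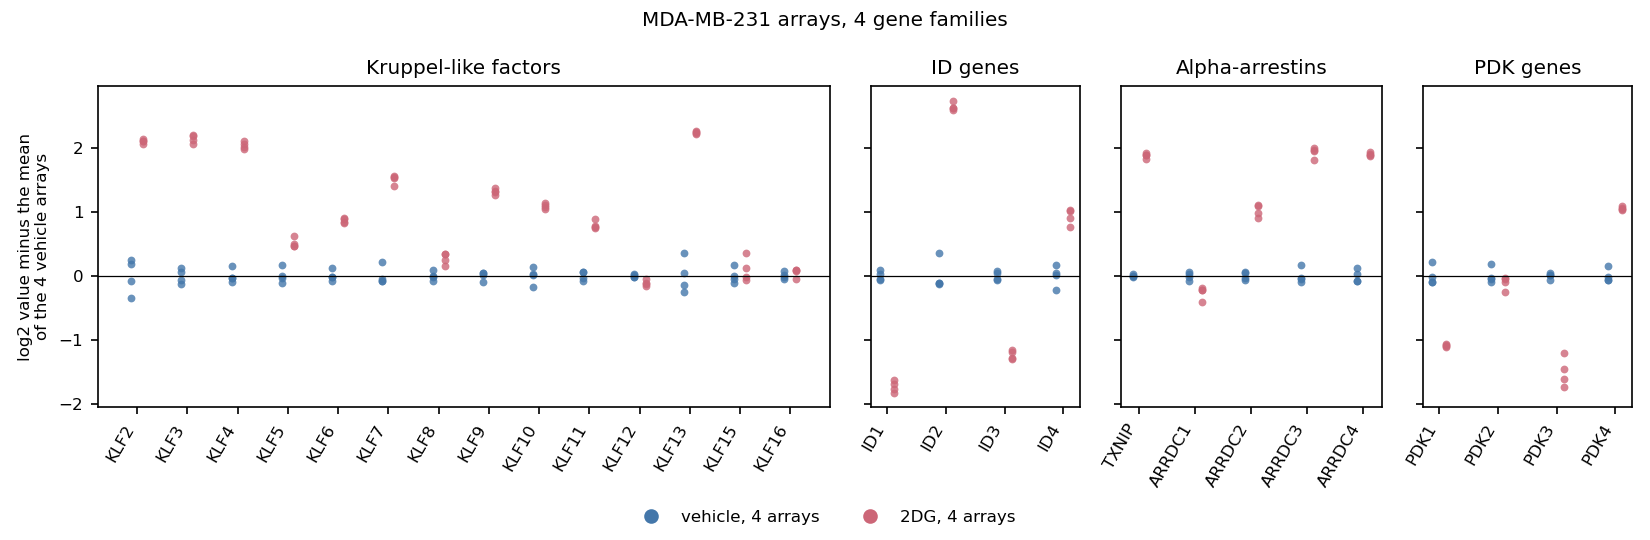
Values of the 8 MDA-MB-231 arrays for 4 gene families, each drawn as the log2 value minus the mean of the 4 vehicle arrays of that gene (blue vehicle, red 2DG). KLF13 and ID2 rise by 2.24 and 2.65 while ID1 and ID3 fall by 1.73 and 1.24 and KLF12, KLF15, KLF16 and PDK2 overlap or nearly overlap their controls.

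The cell division programme fell in each of its stages. All 42 genes of the mitotic kinase, kinesin and kinetochore list fell, with a median of -1.30 and 35 of them at least 2-fold. Replication licensing followed, with 24 of 25 down (median -1.07), then DNA polymerases and deoxynucleotide synthesis, with 28 of 30 down (median -1.12). Of 30 genes for E2F factors, RB proteins, cyclins and their kinases 23 fell and 5 rose (median -0.70).

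Among licensing factors MCM6, a subunit of the replicative helicase, measured 12.14, 12.18, 12.15 and 12.11 on vehicle and 10.25, 10.26, 10.29 and 10.29 with 2DG (1.87 ± 0.0324, lower; limma adjusted p = 5.31e-16). The helicase subunit MCM2 fell by 1.52 and the initiation factor MCM10 by 1.74. CDC45 fell by 1.42, GINS1 by 2.04 and GINS2 by 2.28, so the partners of the MCM ring in the active helicase fell with it, though GINS2 was at -0.21 without shared probe sets. The loaders moved less: CDC6 fell from 11.05, 11.18, 11.10 and 11.01 to 10.13, 10.21, 10.30 and 10.30 (0.85 ± 0.0513) and CDT1 fell by 0.67.

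E2F sites were searched as TTT, a pair of C or G, and CGC. They were matched in 7 of the 22 licensing genes with a promoter, and all 7 fell: MCM6, MCM3 (-1.66), MCM7 (-1.27), GINS2, DTL (-0.89), ORC3 (-0.76) and CDT1. Since 24 of the 25 measured licensing genes fell, these 7 falls do not set apart the genes with a site. Over all promoters 2.79% held a match. The 560 measured genes with one had a median of -0.03, with 38.4% down and 25.5% up, beside 27.0% and 26.3% for all measured genes with a promoter. MCM6 held 2 overlapping pairs on opposite strands, and the sites of the 7 genes are shown in the direction of the motif, which is in capitals. The promoters of MCM2 and CDC6 held no match.

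MCM6, distal: tttgcaTTTGGCGCgaaatc
MCM6, proximal: gtcaggTTTGGCGCgaaatc
MCM3: ggtacgTTTCCCGCcaccgc
MCM7, proximal: gcgacgTTTCGCGCc
MCM7, distal: gccgggTTTCCCGCggtccg
GINS2: cgccgtTTTCCCGCcacggc
CDT1: gccaaaTTTCCCGCgggcgc
ORC3: gggaTTTCCCGCgcgccc
DTL: cgtcagTTTGGCGC

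Among DNA synthesis genes POLE2, a subunit of the leading-strand polymerase, went from 11.70, 11.82, 11.75 and 11.68 to 9.42, 9.48, 9.5 and 9.46, POLA1 of the primase complex fell by 1.85 and PRIM1 fell by 1.78. PCNA, the sliding clamp, fell by 1.04 and thymidylate synthase TYMS by 1.26, both from bright levels. Of the small subunits of ribonucleotide reductase, RRM2, which serves S phase, fell by 2.01 and RRM2B, which serves resting and damaged cells, fell by 1.24, from 8.56, 8.76, 8.60 and 8.58 to 7.44, 7.38, 7.41 and 7.32. Histone genes fell in 14 of 25 cases. H2AX fell by 1.64, the variant gene H2AZ1 by 0.30 and SLBP, which binds the stem-loop of replication-dependent histone mRNAs, by 0.95, with the other probe sets of H2AX between -0.61 and 0.04. The histone chaperone NASP fell by 1.10 and was at 0.07 without shared probe sets, while another of its probe sets changed by -3.09.

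The cyclins did not share a direction. CCNE2 fell by 2.11 and CCNA2 by 1.94, the D-type CCND1 fell from 12.33, 12.56, 12.39 and 12.38 to 11.61, 11.62, 11.61 and 11.64, and the D-type CCND2 rose from 8.0, 8.03, 7.88 and 7.86 to 9.79, 9.86, 9.81 and 9.72 (1.85 ± 0.0468). CCND2 had other probe sets from -0.05 to 3.39, and CCND1 another at -0.22. E2F1 fell by 0.63, RBL2, the pocket protein p130 of resting cells, by 1.08 (other probe set -0.30), and CDK1 by 1.06. Of 7 CDK inhibitor genes CDKN1A (p21) rose by 0.90 and CDKN1C (p57) by 0.55. CDKN3, a phosphatase of mitotic cells in spite of its name, fell by 2.39, and the other 4 did not pass the test.

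In mitosis SPC25 of the kinetochore fell by 2.39, and the kinesins KIF20A and KIF15 changed by -2.37 and -2.34. FOXM1, a transcription factor of G2 and mitotic genes, fell from 10.67, 11.01, 10.61 and 10.73 to 9.75, 9.85, 9.88 and 9.88 (0.92 ± 0.081). Its targets AURKA and TOP2A fell by 1.21 and 1.12, although without shared probe sets AURKA was at -0.29 (adjusted p = 0.0865). The cell cycle homology region (TTTGAA or TTTAAA) was matched in 20 of 35 members of this list with a promoter and in 22.1% of all promoters, and the 2681 measured genes with it had the median of all genes, 0.03.

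The Kruppel-like factors mostly rose. Of 14 of these factors, zinc finger proteins that bind GC-rich sites, 11 rose, none fell and 7 rose at least 2-fold, with a median of 0.98. In order of change they were KLF13 (2.24 ± 0.0885), KLF3 (2.15 ± 0.056), KLF2 (2.10 ± 0.107), KLF4 (2.04 ± 0.0536), KLF7 (1.51 ± 0.0691), KLF9 (1.32 ± 0.0497), KLF10 (1.09 ± 0.0541), KLF6 (0.87 ± 0.04), KLF11 (0.80 ± 0.0516), KLF5 (0.52 ± 0.0585) and KLF8 (0.27 ± 0.0542). Neighbours among the first 4 differed by little more than their errors, and the order holds for the brightest probe sets. Without shared probe sets KLF2 was at 0.28 (adjusted p = 0.0124) and KLF13 at 0.01 (adjusted p = 0.949). The 4 other probe sets of KLF9 ran from -0.105 to 1.86, with 2 of them opposite to its rise. KLF16 (0.05), KLF15 (0.10) and KLF12 (-0.11) did not pass the test, although KLF16 rose by 0.41 without shared probe sets (adjusted p = 7.23e-06). KLF4, a factor of epithelial arrest and of pluripotency, measured 10.70, 10.95, 10.76 and 10.76 on vehicle and 12.85, 12.90, 12.80 and 12.77 with 2DG. KLF2 was the most variable of them on vehicle, at 9.55, 10.08, 10.14 and 9.82, and tight with 2DG, at 11.96, 12, 12.01 and 12.03.

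The ID proteins, which lack a DNA-binding domain and sequester basic helix-loop-helix factors, moved in opposite directions. ID2 measured 5.55, 5.57, 6.03 and 5.57 on vehicle, with replica C above the rest, and 8.28, 8.31, 8.31 and 8.42 with 2DG (2.65 ± 0.0913), and its other probe set changed by 1.18. ID4 rose by 0.93. ID1 fell from 10.76, 10.67, 10.83 and 10.68 to 8.91, 9.05, 8.97 and 9.11 (1.73 ± 0.0487) and ID3 fell from 8.65, 8.67, 8.56 and 8.53 to 7.30, 7.44, 7.32 and 7.41 (1.24 ± 0.0475). All 4 are known targets of BMP signalling, in which the decoy receptor BAMBI rose by 1.82, the ligand BMP2 by 1.47 and the inhibitory SMAD7 by 0.47. Of the 26 genes of TGF-beta signalling and ID genes 15 rose and 9 fell.

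MXD1, which competes with MYC for MAX, rose from 7.96, 7.88, 7.95 and 7.82 to 10.96, 10.93, 10.98 and 10.97 (3.06 ± 0.0392), and its other probe sets changed by 0.97 and 1.20. MXD1 lies just below the 15 largest rises, the last of which was 3.07. MYC itself rose by 0.48 and MXD3 fell by 0.33. Of 23 immediate-early factors 14 rose and 1 fell (median 0.50): the orphan receptor NR4A2 went from 6.27, 6.58, 6.48 and 6.32 to 9.26, 9.31, 9.29 and 8.92, EGR1 rose by 1.67, FOS by 1.49 and IER3 by 1.56. The phosphatases that switch off MAP kinases rose with them, DUSP1 by 1.51 (other probe sets 0.17 to 0.65), DUSP5 by 1.42 and DUSP16 by 1.39, while the ERK-specific DUSP6 was at -0.08 ± 0.0465 (adjusted p = 0.191). The receptor kinase antagonists SPRY4 and SPRY1 parted, with 1.25 and -1.42.

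Among clock genes 9 of 18 rose and 4 fell. BMAL1, the core activator, rose from 8.42, 8.50, 8.59 and 8.49 to 9.99, 10.02, 10.11 and 10.07 (1.55 ± 0.0421). The repressor PER3 fell from 8.47, 8.79, 8.51 and 8.60 to 6.36, 5.99, 6.21 and 6.32 (2.37 ± 0.114; -0.97 without shared probe sets), and PER2 rose by 0.43 with its other probe set at 0.21. NFIL3, a repressor of D-box genes, rose by 1.46, BHLHE40 by 0.47, and BHLHE41 fell by 0.83 and was at 0.09 without shared probe sets. No time of day is given in the sources used here, and both groups were harvested 24 h after treatment. Targets of the glucocorticoid receptor did not share a direction in their leading members, since FKBP5 fell from 11.16, 11.01, 11.16 and 11.12 to 9.51, 9.55, 9.54 and 9.57 (1.57 ± 0.0379) while TSC22D3 rose. Of 14 genes of that list 9 rose and 1 fell, and the receptor gene NR3C1 rose by 0.12.

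Chromatin genes moved both ways, 19 up and 13 down of 35. The polycomb methyltransferases moved apart: EZH1 rose by 1.39, from 8.56, 8.74, 8.49 and 8.61 to 10.08, 10.07, 9.89 and 9.93, and EZH2, a cell cycle gene, fell by 1.04. UHRF1 and DNMT1, which copy DNA methylation after replication, fell by 1.41 and 0.48, and the oxidase TET3 rose by 1.35. The demethylase KDM6B rose by 0.51 and HDAC9 by 0.98.

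Genes for mitochondria fell by small amounts over many members. Of 75 mitochondrial ribosomal proteins 52 fell and 10 rose (median -0.29), of 50 subunits of the respiratory chain and ATP synthase 33 fell and 5 rose (median -0.17), and of 25 genes of fatty acid oxidation 18 fell and 2 rose (median -0.30). ETFB, the electron carrier from fatty acid oxidation to the chain, fell from 10.24, 10.36, 10.29 and 10.19 to 8.38, 8.51, 8.46 and 8.64 (1.77 ± 0.0532). HADH, which acts in the spiral itself, fell by 1.62, ACADSB by 1.46 and the coactivator PPARGC1B by 1.62. The sizes for ACADSB and PPARGC1B rest on their brightest probe sets, as the other ACADSB probe set changed by -0.48 and the 3 others of PPARGC1B by -0.40 to -0.01. CPT1A, the gatekeeper of fatty acid import, was at 0.08 ± 0.0379 (adjusted p = 0.0846), with 1 of its other probe sets at 0.66. MRPL20 fell by 1.61, MRPL12 by 1.47 and MRPL1 by 1.30, and MRPS6 rose from 11.07, 11.12, 11.15 and 11.08 to 12.37, 12.44, 12.45 and 12.34. Without shared probe sets MRPL20 and MRPL12 were at -0.39 and -0.60. On the brightest probe sets respiratory subunits fell by less, NDUFV2 by 0.78, NDUFB7 by 0.75, ATP5MC1 by 0.82 and ATP5PD by 0.88, and NDUFB7 and ATP5PD were at 0.03 and -0.12 without shared probe sets.

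The cytosolic ribosome contrasted with its own assembly line. Of 59 cytosolic ribosomal proteins 33 did not pass the test, 20 rose and 6 fell, with a median of 0.06, and RPL39L, a paralogue, fell by 1.67. Of 39 genes of ribosome biogenesis and RNA polymerase I 30 fell and 6 rose, with a median of -0.48. The polymerase subunits POLR1G and POLR1F fell by 1.61 and 1.04, the assembly factors WDR43 and MRTO4 by 1.20 and 1.16, and nucleolin (NCL) by 0.43, while the helicase DDX10 rose by 0.94. Without shared probe sets NCL was at -0.28 and no longer called (adjusted p = 0.156), and the other probe set of DDX10 changed by -0.21, against the direction of its rise. POLR1G had the widest vehicle values of these, at 10.25, 11.11, 10.73 and 10.82.

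The value of EIF5A, the hypusine-carrying elongation factor, rested on single arrays. It measured 12.97, 10.62, 12.91 and 12.87 on vehicle and 11.35, 11.47, 11.20 and 11.52 with 2DG, so that vehicle replica B lay below all 2DG arrays. The fall was 0.96 ± 0.365 (adjusted p = 0.0387) with all arrays and 1.53 without vehicle replica B (adjusted p = 2.16e-11). Leaving out any of the other 7 arrays ended the call, with adjusted p between 0.055 and 0.126, and its other probe sets changed by -0.62 and -0.44. EIF4EBP2, a brake on cap-dependent translation, fell by 1.01.

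Proteasome subunits fell in 21 of 31 cases and rose in 2 (median -0.15), with the activator PSME3 at -1.37 and the 19S subunits PSMD1 and PSMC3 at -1.02 and -0.99. Splicing factors fell in 24 of 36 and rose in 8. SRSF7 fell by 0.97 and SRSF6 by 0.97, both serine and arginine rich proteins, and the kinase CLK3, which phosphorylates such proteins, rose by 0.94 (0.27 without shared probe sets). On its brightest probe set HNRNPA2B1 fell by 1.24, and without shared probe sets its change was 0.81, so its direction depends on the probe set.

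Redox genes mostly rose. Of 31 NRF2 targets and glutathione genes 22 rose and 6 fell, 10 of the rises being at least 2-fold (median 0.69). The aldo-keto reductase AKR1C3 went from 8.66, 8.87, 8.85 and 8.80 to 11.79, 11.67, 11.74 and 11.74. AKR1C1 and AKR1C2 rose by 2.42 and 2.31, but these near-identical genes share probes and were at 0.16 and -0.09 without shared probe sets. TXNRD1, thioredoxin reductase, rose by 1.14 (other probe set 0.01), HMOX1 by 0.92, the sulfiredoxin gene SRXN1 by 0.88 and GCLM, of glutathione synthesis, by 0.73. The antioxidant element core was matched in 10 of 23 list members with a promoter and in 24.2% of all promoters.

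Of 9 listed metallothioneins, small proteins that bind zinc and copper, and zinc response genes 8 rose and none fell, mostly by small amounts (median 0.35). MT1X measured 13.52, 13.69, 13.63 and 13.60 on vehicle and 14.13, 14.14, 14.14 and 14.10 with 2DG, and MT2A rose by 0.28. The zinc exporter SLC30A1, which answers to the same zinc sensor, rose most, by 1.17. Of 22 heat shock proteins of the cytosol and mitochondria 7 rose and 9 fell. HSPA2 fell by 1.79, HSPB1 by 0.80 and the mitochondrial pair HSPD1 and HSPE1 by 0.29 and 0.73, and HSPB8 and DNAJB1 rose by 1.08 and 0.37, the former by 0.29 without shared probe sets.

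Genes of autophagy rose in 19 of 30 cases and fell in 6, and lysosomal genes rose in 21 of 33 and fell in 5. MAP1LC3B, the LC3 protein of the autophagosome, measured 11.03, 10.98, 11.01 and 10.93 on vehicle and 12.77, 12.80, 12.73 and 12.75 with 2DG, and its other probe set changed by 0.89. The cargo receptors SQSTM1 and OPTN rose by 1.33 and 1.37 and GABARAPL1 by 1.06, with SQSTM1 and OPTN at 0.81 and 0.79 without shared probe sets. Against them ATG10, an E2-like enzyme of the ATG12 conjugation, fell from 6.80, 7.09, 6.99 and 7.01 to 4.86, 4.65, 4.81 and 5.15 (2.10 ± 0.0883). In the lysosome the cholesterol exporter NPC1 rose by 1.42 (other probe sets up to 0.54) and cathepsin L (CTSL) by 1.00.

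Genes of AMPK, sestrins and mTORC1 brakes rose in part, 11 up and 6 down of 24. DDIT4 (REDD1) rose from 10.69, 10.91, 10.92 and 10.75 to 12.77, 12.71, 12.73 and 12.73 (1.92 ± 0.0462) and TSC1 by 1.41. SESN2, a leucine sensor and ATF4 target, measured 7.14, 7.86, 7.34 and 7.27 on vehicle, with replica B highest, and 9.03, 9.06, 9.0 and 9.08 with 2DG. The GTPase RRAGC rose by 1.16. FOXO1 and FOXO3 rose by 1.08 and 1.08, with the FOXO targets BCL6 (1.91) and IRS2 (0.58). Their list, FOXO factors and the insulin receptor pathway, split, with 9 up and 8 down of 20 (median 0.115). Of the p53 targets 11 of 22 rose and 7 fell, with GADD45A at 0.75, TP53INP1 at 0.99 and XPC at -1.05. This line is known to carry a mutant p53. In the BCL2 family 9 of 18 rose and 3 fell: the BH3-only gene PMAIP1 (NOXA) rose by 1.03, MCL1, which NOXA binds, by 0.29, and BNIP3L fell by 0.75. The other probe sets of TP53INP1 changed by no more than 0.22, and that of BNIP3L by 0.31, opposite to its fall.

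Lipid genes mostly fell in the branch of fatty acids, 10 of 18 down and 4 up. The regulator SREBF1 fell by 1.07 and malic enzyme ME1, which is also an NRF2 target, rose by 1.47, or 0.62 without shared probe sets. The other SREBF1 probe set changed by 0.15, opposite to its fall. The desaturase SCD fell by 0.64 on its brightest probe set and had others at 0.31 to 0.46. Cholesterol genes split, 9 up and 9 down of 24, with PMVK at -1.47, EBP at -1.39, HMGCS1 at -0.46 and the sterol sensor INSIG1 at -0.46. Hypoxia targets split as well, 12 up and 7 down of 24. EPAS1 (HIF-2 alpha) rose by 1.40 (other probe sets up to 0.41), VEGFA by 1.33 and NDRG1 by 1.84, and the vasodilator peptide gene ADM, a classic hypoxia target, fell from 12.11, 12.08, 12.04 and 12.06 to 10.61, 10.62, 10.58 and 10.71 (1.44 ± 0.0412).

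Proteases and matrix proteins that invasive cells secrete changed in both directions, 16 up and 11 down of 33. The collagenase MMP1 rose from 7.47, 7.85, 7.53 and 7.62 to 9.85, 9.76, 9.91 and 9.82 (2.22 ± 0.1). The protease inhibitor SERPINE2 rose by 2.16 ± 0.0424, with its other probe set at 0.50, and tenascin C (TNC) by 1.29. The collagen gene COL3A1, also a fibroblast marker, rose from 5.18, 4.96, 4.79 and 4.77 to 6.52, 6.77, 6.36 and 6.20 and was at -0.06 without shared probe sets. PLAU, the urokinase protease, fell by 1.05 and THBS1 by 0.58, the latter by 1.87 without shared probe sets. The collagen receptor subunits ITGA10 and ITGA2 rose by 1.32 and 1.10 and the laminin chain LAMB3 by 0.99.

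Of 35 genes for cytokines, chemokines and prostaglandin enzymes 18 rose and 6 fell. CXCL8 (interleukin-8) measured 7.95, 7.98, 8.08 and 8.28 on vehicle and 10.06, 9.99, 9.95 and 9.93 with 2DG, IL24 rose by 1.47, IL11 by 1.33 and LIF by 0.66. The inhibitor gene NFKBIA, itself induced by NF-kB, rose by 1.56 on its brightest probe set and by 0.21 without shared probe sets. Of the EGF family the ligand EREG rose by 1.57 (other probe set 0.48) and the receptor EGFR by 0.61, while NRG1 fell by 0.93 on its brightest probe set and rose by 0.79 as the mean of all its probe sets. Interferon-stimulated genes rose in 16 of 37 and fell in 8: IFIT2 rose by 1.54, GBP2 by 1.24, IRF9 by 1.18 and the peptide transporter TAP1 by 0.92, and the checkpoint ligand CD274 (PD-L1) fell by 0.71 (other probe set -0.34).

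RHOC rose by 0.56, RHOA by 0.20 and the atypical RND3 by 0.59, against the falls of RHOU (-1.20) and of the mitotic regulators ARHGAP11A (-1.83) and RACGAP1 (-1.15). Without shared probe sets RHOA was at 0.04 and not called (adjusted p = 0.628), and the other probe set of RHOC changed by -0.24, against its rise. RHOU measured 7.79, 7.77, 7.77 and 7.71 on vehicle and 6.55, 6.51, 6.66 and 6.52 with 2DG, and its other probe set changed by -0.14. Among noncoding RNAs MALAT1 rose from 12.83, 12.23, 12.94 and 12.94, where replica B was lowest, to 14.17, 14.08, 14.14 and 14, and OIP5-AS1 fell by 1.14. Markers used for the line changed by less than 2-fold: KRT18 fell by 0.59, CD44 by 0.33 on its brightest probe set (a rise of 0.36 as the mean of all its probe sets), EPCAM by 0.58 and ERBB2 by 0.39, CDH1 and KRT14 rose by 0.69 and 0.80 from dim levels, and VIM was at -0.05 (adjusted p = 0.208).

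**Figure D4:**
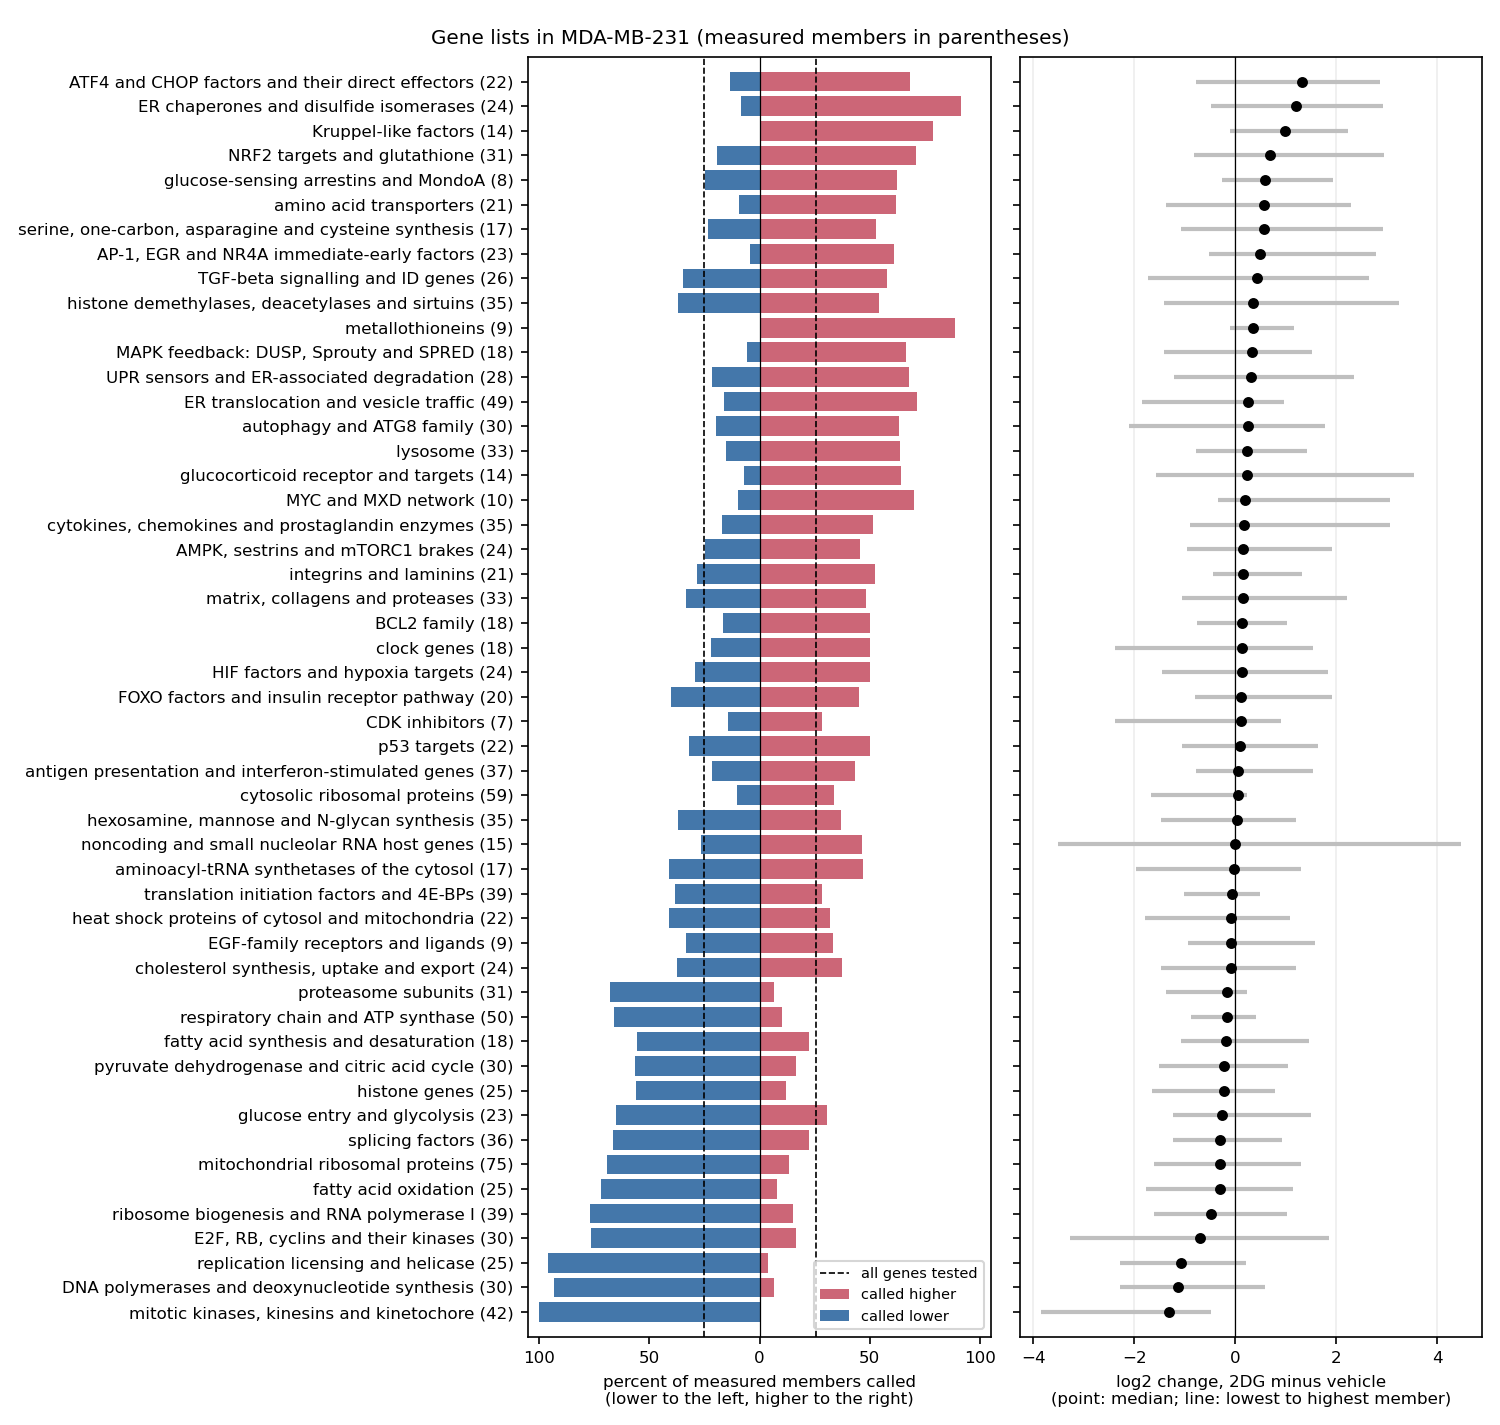
Gene lists other than the cell type markers, ordered by median change, with the percent of measured members that fell (blue, to the left) and rose (red, to the right) beside the shares of all genes tested (dashed), and on the right the median and range of the members' log2 changes. The mitotic list lies lowest with all 42 members down and a median of -1.30, and the ATF4 and ER chaperone lists highest with medians of 1.32 and 1.20.

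How far this response differed from that of MCF10A was tested as the difference of both changes, which passed for 9065 genes (45.8%). Of the 603 genes that rose at least 2-fold in MDA-MB-231, 467 also rose in MCF10A, 58 fell there and 78 did not pass there. Over all genes 29% rose and 25.2% fell in MCF10A. Of the 937 that fell at least 2-fold, 749 also fell, 66 rose and 122 did not pass. The lines were grown in different media, so line and medium cannot be told apart, and the actin ratio of MCF10A was 0.34 to 0.49 on vehicle and 0.50 to 0.65 with 2DG.

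Among the 30 named genes the largest difference was that of PRSS35, whose change in MCF10A was 0.03 (difference 6.70 ± 0.123, limma adjusted p = 2.98e-15). RELN and COL15A1 also had changes near 0 there, -0.01 and -0.02, with differences of 4.80 and 3.09. PTGS2 and TMEM171 went the other way in MCF10A, by -2.35 and -0.35 (differences 5.42 ± 0.106 and 3.80 ± 0.123). RHOB rose there by 1.38, PRRG4 by 1.25 and S100P by 1.54, in each case by less than in MDA-MB-231. LINC00622, GCNA, TNFSF15, KDM7A and MSH4 also rose there, with differences between 0.56 for TNFSF15 and 1.43 for GCNA. TSC22D3 was the rise that was larger in MCF10A, at 4.50 (difference -0.96 ± 0.0646, adjusted p = 3.14e-09). NMRAL2P rose by 3.07 in MCF10A, and its difference did not pass the test (0.20 ± 0.22, adjusted p = 0.531).

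Of the 15 falls, 14 were also falls in MCF10A. MAMDC2 did not fall in MCF10A (0.13; difference -2.67 ± 0.165, adjusted p = 1.14e-09), and KIAA1143 fell there by 0.45 (difference -2.08), measured on the same single probe set that decides its fall in MDA-MB-231. The cell cycle genes HMMR, E2F8 and CDCA7 changed by -5.0, -4.43 and -3.91 in MCF10A, further than in MDA-MB-231 (differences 1.15, 1.16 and 0.67). ANP32E changed by -2.56, and its difference did not pass (-0.01 ± 0.0702, adjusted p = 0.949). The other 9 falls were smaller in MCF10A, with differences between -0.26 for COL8A1 and -1.80 for MGC12916.

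**Figure D5:**
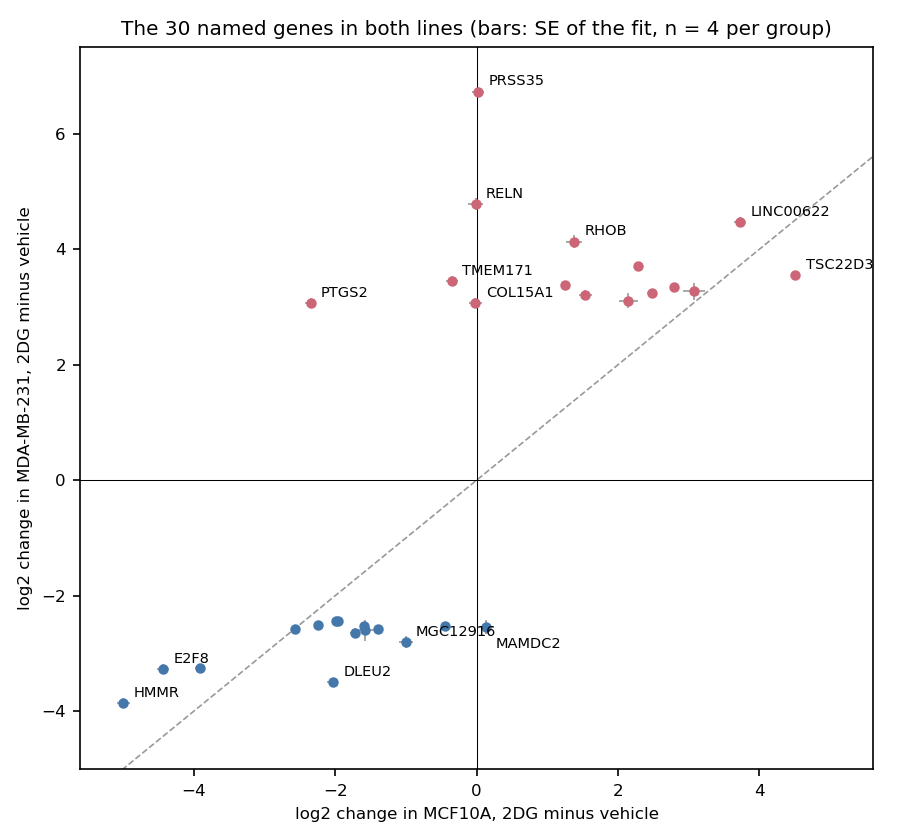
Log2 change with 2DG in MCF10A (horizontal) and MDA-MB-231 (vertical) for the 15 largest rises (red) and 15 largest falls (blue) of MDA-MB-231, with bars for the SE of the fit (n = 4 per group) and a dashed line where both are equal. PRSS35, RELN and COL15A1 lie near 0 on the horizontal axis, PTGS2 at -2.35, and HMMR, E2F8 and CDCA7 to the left of the line.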

How the data were processed

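RNA was extracted with Trizol and DNase and labelled with a 3' in vitro transcription kit, per the labels' protocols, and hybridised to Affymetrix U133 Plus 2.0 arrays. The deposited values are log2 intensities that the authors summarised with RMA, per the submitters' processing notes. Of 54675 probe sets, 41097 had 1 gene symbol, 1801 had several and 11777 had none. These numbers include 62 controls, 6 of them with 1 gene symbol, which were set aside. For each of 19775 genes the probe set with the highest mean over 16 arrays was used, and other probe sets served as a check. With 3' labelling, RNA integrity and probe position can both affect a value.

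Group means of the 4 line and treatment groups were fitted over all 16 arrays with limma 3.58.1 (lmFit, eBayes; R 4.3.3), and p-values were adjusted by Benjamini-Hochberg over all genes. The SE is that of the fit. The steps were tested on simulated data. Named genes were the 15 largest rises and falls without overlap, the 4 largest called changes and key members of each of 57 lists, members of small families given in order, and genes with a promoter match. The result of 1 list is not reported here. The members and lists were chosen with earlier results of these data known. "Shared probe sets" are those whose identifier ends in _s_at, _x_at or _a_at. Promoters were 250 bases before the start from RefSeq (GRCh38.p14), held for 15384 measured genes. The number of arrays limits the precision. Other probe set choices, models, centring, an actin covariate and left-out arrays were tried.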

Additional observations from a re-analysis of the deposited data

Results flagged for a closer look

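Among the named genes, 36 of 610 groups of 4 arrays had 1 array apart from the other 3, where chance gives about 1 in 20. Vehicle replica B was the array apart in 10 of them. The pair of values beside each gene is that array and the mean of the other 3. Vehicle replica B stood apart for HYOU1 (10.75 against 10.30), SLC1A4 (8.12 against 7.78), MCM10 (10.93 against 10.85), H2AX (11.76 against 11.48), DUSP5 (11.08 against 10.81), UHRF1 (12.37 against 12.13), HADH (10.80 against 10.95), EIF5A (10.62 against 12.92), MALAT1 (12.23 against 12.90) and KLF7 (7.78 against 7.48). 2DG replica D stood apart for GDF15 (9.74 against 9.58), VLDLR (10.00 against 10.02), NR4A2 (8.92 against 9.29), PSME3 (9.83 against 9.74), TNC (11.07 against 11.31), OPTN (11.25 against 11.13) and KLF11 (9.82 against 9.69). Vehicle replica C stood apart for TMEM120A (8.81 against 8.94), PFKFB3 (9.99 against 9.98), STT3B (12.53 against 12.65), ID2 (6.03 against 5.56) and ACADSB (8.42 against 8.41). 2DG replica C stood apart for PSPH (11.23 against 11.15), CARS1 (13.51 against 13.44), KLF5 (9.88 against 9.74) and ARRDC1 (7.07 against 7.26). Vehicle replica D stood apart for OGT (11.91 against 11.79), NR3C1 (12.01 against 11.91), ATP5MC1 (11.91 against 11.85) and INSIG1 (9.61 against 9.70). 2DG replica A stood apart for TMEM171 (10.25 against 10.38), LAMB3 (12.95 against 13.03) and RND3 (12.60 against 12.65). Vehicle replica A stood apart for SLC2A3 (7.65 against 7.75) and HDAC9 (9.57 against 9.68). 2DG replica B stood apart for BCL6 (11.71 against 11.69). EIF5A and MALAT1 on vehicle replica B were the widest of these gaps.

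The response to 2DG differed between the lines for 28 of the 30 genes with the largest changes, tested as the MDA-MB-231 change minus the MCF10A change. The difference was positive for PRSS35 (6.70), RELN (4.80), LINC00622 (0.75), RHOB (2.75), GCNA (1.43), TMEM171 (3.80), PRRG4 (2.13), TNFSF15 (0.56), KDM7A (0.76), S100P (1.67), MSH4 (0.97), COL15A1 (3.09), PTGS2 (5.42), HMMR (1.15), E2F8 (1.16) and CDCA7 (0.67). It was negative for TSC22D3 (-0.96), DLEU2 (-1.47), MGC12916 (-1.80), TIMM23B (-0.92), SP2-AS1 (-1.03), TRIM14 (-1.17), MAMDC2 (-2.67), KIAA1143 (-2.08), LYRM7 (-0.92), COL8A1 (-0.26), BRI3BP (-0.44) and PTCD2 (-0.47). The genes were chosen for large changes in MDA-MB-231, which favours differences of the same sign as that change.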

How the results depend on the processing

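The numbers of genes that rose, fell or differed between lines stayed within 1.5 times their values under every alternative that was run. Leaving out 1 MDA-MB-231 array at a time gave 4737 to 5025 rises, 4845 to 4969 falls, 592 to 619 and 912 to 950 changes of at least 2-fold, 8809 to 9082 differences between lines and an actin ratio difference of 0.3575 to 0.594. The last value leaves out vehicle replica B, the array that was singled out by this ratio, so its exact test decides nothing. The mean of all probe sets of a gene gave 422 rises and 675 falls of at least 2-fold, and without shared probe sets 3802 genes rose and 4045 fell.

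Same-letter deviations of the MDA-MB-231 arrays correlated across genes at 0.01, 0.01, 0.02 and -0.10. Those of the MCF10A arrays, which enter the same fit, correlated at 0.085, 0.040, 0.071 and 0.088. Such values cannot decide whether the letters mark cultures handled together. With a replicate block 4953 genes rose and 4944 fell, of which 4770 and 4854 were also called without it, 603 and 937 changed at least 2-fold, and 8911 differed between lines.

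Single genes depended most on the probe set. With the mean of all probe sets the change was 0.024 for SLC7A2, 0.074 for MLXIP, 0.79 for NRG1, 0.13 for SCD, 0.36 for CD44, 0.32 for KLF12 and 0.0075 for ARRDC1, and the median was 0.26 for tRNA synthetases, 0.088 for the EGF family and 0.0104 for markers absent from the line, all opposite to the values reported. Without shared probe sets it was 0.065 for DLEU2, 0.0425 for TRIM14, -0.46 for SERP1, 0.34 for ALG9, 0.075 for NASP, 0.0875 for BHLHE41, 0.025 for NDUFB7, 0.81 for HNRNPA2B1, -0.085 for AKR1C2, -0.06 for COL3A1 and 0.28 for ARRDC1, and the medians were 0.40 for tRNA synthetases, 0.12 for markers of the line and 0.05 for absent markers. The absent markers had a median of 0.025 without dim genes and 0.02 without both B arrays, and ranged from -0.0542 to 0.00833 as single arrays were left out. ALG12, near 0 throughout, was at -0.0075 after centring, -0.0367 without both B arrays and between -0.0542 and 0.0858 as single arrays were left out, below 0 without vehicle replica D, 2DG replica B or 2DG replica D. With the actin ratio as a covariate EIF5A was at 0.39 and the median of the AMPK, sestrin and mTORC1 brake list at -0.0234. The cause of these shifts was not tested. Of the named genes that were called and could be compared, 78 of 192 moved by over 1.5 times with the mean of all probe sets, 42 of 219 without shared probe sets and 3 of 297 with the actin covariate. List medians depended more on these choices. Of 57, 38 moved by more than the spread between arrays in the same direction and 3 turned without shared probe sets, 29 moved and 3 turned with the mean of all probe sets, and 28 moved and 1 turned with the actin covariate.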
